A study of Mus musculus with 4 samples.

Results

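The inhibitors of cyclin-dependent kinases (CDKs) were followed through cell-cycle exit in myogenic progenitors (MPs) of regenerating mouse muscle. The 7 genes are Cdkn1a, Cdkn1b, Cdkn1c, Cdkn2a, Cdkn2b, Cdkn2c and Cdkn2d, out of 25827 genes that the count files list, and all 7 were found under their symbols. They were chosen by name for their part in cell-cycle exit and by a measured value, the lower Cdkn1c in both knockout libraries. The genotype difference is therefore given as a description with no test. Cdkn1c also served the study as a marker of committed cells, so its levels carry no test anywhere.

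Single-cell RNA sequencing was run on 4 libraries of MPs, each pooled from 3 mice of 12 weeks, 6 days after cardiotoxin, a toxin that destroys muscle fibres, was injected into the tibialis anterior muscle. The cells had been sorted for α7-integrin and against CD45, CD31 and Sca1. Libraries of 2 groups were made, Pax7Cre (control) and miR-501KO, whose males carry Pax7Cre and a floxed miR-501 on their single X chromosome (Pax7Cre; miR-501fl/Y), so that both groups carry the Cre. Pax7Cre is active from the start of the Pax7 lineage and not only after injury, so miR-501 was lost in that lineage before the muscle was injured. Replicate 1 of both groups came from run 1 and replicate 2 from run 2. With pools as samples, errors describe the spread between libraries and not between mice.

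With cells under 5000 UMIs (unique molecular identifiers, 1 per captured RNA molecule) or 1000 genes dropped, 10450 cells remained, between 1829 and 3439 per library, with a median depth of 25254 to 34579 UMIs. Of these cells, 20 carried a barcode that also occurred in another library. Clcn5, the host gene of miR-501, lay between 135 and 157 CPM (UMIs of a gene scaled to equal library totals) and miR-501 itself is not listed, so the files hold no check of the deletion. Clusters that came to over 90% from 1 library held 804 cells, 799 of them from miR-501KO replicate 1. They were left out of the cell states described below, and so of the genotype values within states. The largest, 659 cells all of that library, raised 8 of 14 myofibre markers and a 0.357 share of the macrophage markers. The paper reports a cluster found in knockout cells alone, with differentiation and macrophage genes. Whether these are the same cells was not tested.

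CDK inhibitors hold a cell out of division by binding the kinases that drive it. The Cip/Kip proteins p21 (Cdkn1a), p27 (Cdkn1b) and p57 (Cdkn1c) bind a wide range of cyclin-CDK complexes. The INK4 proteins p16 (Cdkn2a), p15 (Cdkn2b), p18 (Cdkn2c) and p19 (Cdkn2d) bind CDK4 and CDK6 alone and keep them from cyclin D, which leaves the retinoblastoma protein free to silence E2F target genes. In muscle, p21 and p57 are known for their shared role in the withdrawal of myoblasts from the cycle before fusion. Cdkn1c is an imprinted gene, expressed from the maternal allele. Cdkn2a encodes both p16 and p19Arf from transcripts with a common 3′ end, so the UMIs counted here, which come from 3′ ends, do not tell them apart.

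The miRNA deleted in the knockout is shown first because its seed, bases 2 to 8 in capitals, sets which sites it can pair with. Both mature arms are from RefSeq (GRCm38.p6, minus strand).
mmu-miR-501-3p, chrX:7241270-7241291: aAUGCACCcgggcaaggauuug
mmu-miR-501-5p, chrX:7241307-7241328: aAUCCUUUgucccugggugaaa

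The DNA word that pairs with the 3p seed, GGTGCAT, occurred in the longest annotated 3′ UTR (GENCODE vM21, GRCm38) of 1 of the 7 inhibitors, Cdkn1b, and in 6.17% of 20787 genes. The 5p word, AAAGGAT, occurred in those of Cdkn1b and Cdkn2d and in 11.6% of the genes. Neither word occurred in the 688 bases of Cdkn1c or the 1334 bases of Cdkn1a, where the median over the genes was 967 bases. The 3′ UTR of Cdkn1b is longer, at 3439 bases, and that of Cdkn2d has 907. A longer sequence has more places for a match, and the shares over all genes are not matched for length. The 3 matches are shown with 10 bases on each side and the word in capitals, since they are all the matches in the family. A match describes the letters only.
Cdkn1b, 3p word, chr6:134924897-134924923, plus strand: aaaaatctggGGTGCATaatagggaat
Cdkn1b, 5p word, chr6:134922327-134922353, plus strand: ccaaggccccAAAGGATagggacggtc
Cdkn2d, 5p word, chr9:21288537-21288563, minus strand: aaatcaattaAAAGGATaacatgagtt

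Of the 7 genes, 6 had an entry in the RefSeq promoter table (GRCm38.p6; 250 bases before to 50 after each start), with 9 entries in all, and Cdkn1c had none. Shown are the entries of Cdkn1a, which rose at exit, and of Cdkn2c and Cdkn2d, which fell together. Capitals mark the words searched on both strands, which were 4 E2F words (TTTCCCGC and TTTCGCGC and TTTGCCGC and TTTGGCGC), the CHR word TTTGAA, the E-boxes CAGCTG and CACCTG, the TATA word TATAAA and the word CCAAT. They do not overlap in these entries. Cdkn1a and Cdkn2c have 2 entries each, and 3′ counts do not tell which start was used.
Cdkn1a, chr17:29090729-29091028, plus strand: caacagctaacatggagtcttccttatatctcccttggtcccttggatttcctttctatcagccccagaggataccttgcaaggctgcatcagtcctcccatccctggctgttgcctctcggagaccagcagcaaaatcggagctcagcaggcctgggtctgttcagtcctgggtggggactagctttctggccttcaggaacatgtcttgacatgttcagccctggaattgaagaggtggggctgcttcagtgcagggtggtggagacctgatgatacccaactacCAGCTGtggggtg
Cdkn1a, chr17:29093519-29093818, plus strand: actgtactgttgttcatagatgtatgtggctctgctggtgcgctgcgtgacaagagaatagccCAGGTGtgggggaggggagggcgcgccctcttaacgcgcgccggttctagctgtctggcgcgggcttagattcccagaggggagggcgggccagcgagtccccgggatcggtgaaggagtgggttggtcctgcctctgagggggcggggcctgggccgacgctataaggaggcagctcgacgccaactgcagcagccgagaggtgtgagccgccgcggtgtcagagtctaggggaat
Cdkn2c, chr4:109666707-109667006, minus strand: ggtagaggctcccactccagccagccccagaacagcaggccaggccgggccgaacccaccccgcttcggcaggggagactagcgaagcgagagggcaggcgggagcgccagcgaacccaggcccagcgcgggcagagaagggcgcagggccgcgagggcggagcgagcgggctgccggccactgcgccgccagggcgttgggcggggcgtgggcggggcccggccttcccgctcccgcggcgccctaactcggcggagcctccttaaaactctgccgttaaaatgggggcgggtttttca
Cdkn2c, chr4:109665323-109665622, minus strand: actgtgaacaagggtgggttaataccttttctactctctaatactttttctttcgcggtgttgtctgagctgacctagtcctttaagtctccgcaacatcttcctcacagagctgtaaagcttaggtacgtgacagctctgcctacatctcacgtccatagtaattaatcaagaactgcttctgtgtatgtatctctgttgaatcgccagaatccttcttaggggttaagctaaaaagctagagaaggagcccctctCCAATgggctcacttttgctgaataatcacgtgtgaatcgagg
Cdkn2d, chr9:21291160-21291459, minus strand: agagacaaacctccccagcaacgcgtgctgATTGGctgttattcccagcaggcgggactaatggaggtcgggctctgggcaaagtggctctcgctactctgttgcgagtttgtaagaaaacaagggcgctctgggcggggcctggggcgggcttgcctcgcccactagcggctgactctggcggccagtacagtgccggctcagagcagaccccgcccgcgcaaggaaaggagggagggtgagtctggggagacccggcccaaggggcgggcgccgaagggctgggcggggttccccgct

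In each Cdkn1a entry an E-box, the word bound by myogenic factors such as MyoD, was found, CAGCTG in the first and CACCTG in the second. CAGCTG occurred in 16.3% and CACCTG in 20.2% of all 32851 entries of this length. An E2F word was found in 1 of the 9 entries, the Cdkn2a start at chr4:89294570-89294869, against 2.26% of all entries, and in none of those of Cdkn2c and Cdkn2d. The CHR word, read by complexes that repress genes outside division, was found at Cdkn2b (17.9% of all entries) and TATAAA at none (13.6%). CCAAT was found in 4 entries, those of Cdkn1b, Cdkn2c (the start at 109665323), Cdkn2d and Cdkn2a (the start at 89282143), against 37.4% of all. Nothing about a factor follows from a word that is absent in these 300 bases.

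To place each cell along the path to exit, it was thinned at random to 5000 UMIs and sorted by UMIs of genes other than the inhibitors. A cell with 5 or more UMIs of 30 replication and mitosis genes was called cycling, and a cell with a Myog UMI (myogenin, the factor of commitment) was called Myog+. States were given to 6370 MPs, without the single-library clusters and the clusters whose leading marker list was not a muscle one. The latter include an unnamed cluster of 2223 cells, described below, that was not shown to be non-muscle. Of the 6370 MPs, 1098 were Pax7+ Myog- non-cycling, 2276 Myog- cycling, 713 Myog+ cycling and 1512 Myog+ non-cycling. The other 771 held neither Pax7 nor Myog and did not cycle. The gates are soft. At 4 or 5 cycle UMIs lay 376 cells (5.90%), and 463 of the 2225 Myog+ cells (20.8%) had a single Myog UMI. Of macrophage-like cells, which should lack Myog but can divide, 15.2% passed the Myog gate and 21.3% the cycle gate, against 34.9% and 46.9% of the MPs.

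The UMIs of the 2 families moved in opposite directions on the way out of the cycle. Summed over Cdkn1a, Cdkn1b and Cdkn1c, Cip/Kip UMIs stood at 547 ± 72.2 CPM (SD, n = 4 libraries here and below) in Myog- cycling cells, 2682 ± 354 in Myog+ cycling cells and 8596 ± 1192 in Myog+ non-cycling cells. Summed over the 4 INK4 genes, they stood at 281 ± 11.01, 243 ± 42.6 and 77.0 ± 7.11 CPM in the same states. Cip/Kip UMIs outnumbered INK4 UMIs 1.70 to 2.16 times in Myog- cycling cells and 96.3 to 127 times in Myog+ non-cycling cells. In Pax7+ Myog- non-cycling cells, the state nearest to quiescence, the sums were 1208 ± 189 and 126 ± 10.2 CPM. Being sums of UMIs, these levels follow the most abundant genes, and Cdkn1c was the most abundant of the Cip/Kip genes in every state and library.

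**Figure D1:**
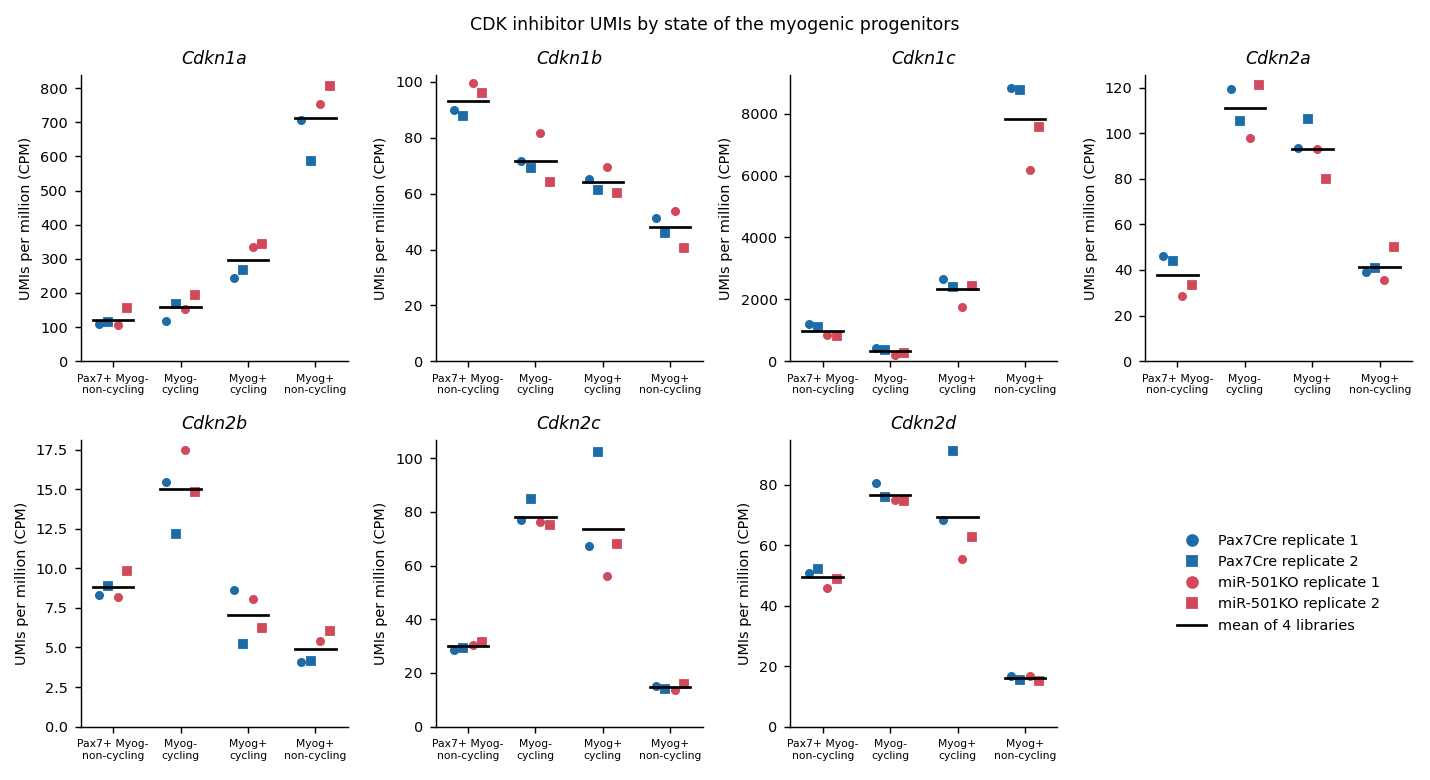
CPM (linear axes from 0) of each inhibitor in 4 cell states; points are the 4 libraries (colour for genotype, shape for run) and the bar is their mean. Cdkn1a and Cdkn1c are highest in Myog+ non-cycling cells, at means of 713 and 7835 CPM, where Cdkn2c and Cdkn2d are lowest, at 14.6 and 15.99 CPM.

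For cell-cycle exit, Myog+ non-cycling cells were compared with Myog- cycling cells in edgeR (quasi-likelihood test, Benjamini-Hochberg adjustment over all genes, the library as a block). Of the 6 genes tested, 1 rose (Cdkn1a) and 5 fell (Cdkn1b and all 4 INK4 genes). The states differ in much of the transcriptome, since 37.8% of 12747 genes rose and 36.9% fell, so that a call alone sets none of these genes apart. The sizes say more. Cdkn1a rose more than 96.5% of the genes tested, and Cdkn2c and Cdkn2d fell more than 96.2% and 95.7% of them.

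Cdkn1c, the p57 gene, had 417 and 363 CPM in Myog- cycling cells of Pax7Cre replicates 1 and 2 and 218 and 269 CPM in those of miR-501KO replicates 1 and 2. In Myog+ non-cycling cells it had 8835 and 8764 CPM in Pax7Cre and 6178 and 7564 CPM in miR-501KO. The states lay far apart in every library, with a log2 fold change of 4.75 (SE 0.08), and 1.098% of the genes tested had a larger one. Since the study used Cdkn1c as a marker of committed cells in these data, this rank is a description only. Among the states it was lowest in Myog- cycling cells, at 317 ± 89.96 CPM, and it stood at 993 ± 206 CPM in Pax7+ Myog- non-cycling cells. Between these 2 Myog- states the log2 fold change was -1.63 (SE 0.08), lower in the cycling cells of 4 of 4 libraries.

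Cdkn1a, the p21 gene and a target of both p53 and MyoD, had 119, 168, 154 and 194 CPM in Myog- cycling cells (Pax7Cre replicates 1 and 2, then miR-501KO replicates 1 and 2, in this and later lists). In Myog+ non-cycling cells it had 707, 587, 754 and 805 CPM. The groups do not overlap, and Cdkn1a rose by 2.28 on the log2 scale (SE 0.09, edgeR adjusted p = 6.29e-15). Its rise fell into a step at the gain of Myog and a step at exit, which are given below. After thinning, 44.0 ± 6.09% of Myog- cycling and 68.5 ± 2.84% of Myog+ non-cycling cells held a Cdkn1a UMI. Macrophage-like cells, which are not a blank for this gene, held one in 67.1 ± 3.32% (median depth 18772 UMIs, against 32909 in Myog+ non-cycling cells).

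Cdkn1b, the p27 gene, went the other way from its Cip/Kip relatives. It had 89.9, 87.8, 99.7 and 95.9 CPM in Pax7+ Myog- non-cycling cells and 71.8, 69.1, 81.8 and 64.0 CPM in Myog- cycling cells. In Myog+ non-cycling cells it had 51.4, 45.9, 53.8 and 40.6 CPM, below every library of the other 2 states. Its fall at exit was small, at -0.48 on the log2 scale (SE 0.05, edgeR adjusted p = 1.04e-07), and 27.2% of the genes tested fell further. p27 is known to be held down in dividing cells by degradation of the protein, which RNA counts do not show.

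Cdkn2c, the p18 gene, had 76.9, 84.6, 76.1 and 75.0 CPM in Myog- cycling cells and 15.2, 13.8, 13.5 and 16.02 CPM in Myog+ non-cycling cells, a change of -2.31 on the log2 scale (SE 0.10, edgeR adjusted p = 1.52e-14). Cdkn2d, the p19 gene, had 80.5, 76.0, 74.9 and 74.5 CPM and then 16.9, 15.5, 16.6 and 15.03 CPM, a change of -2.16 (SE 0.09, edgeR adjusted p = 3.44e-15). Libraries within a state were close for both genes and the states did not overlap. In Myog+ non-cycling cells a Cdkn2c UMI was seen after thinning in 5.99 ± 2.61% and a Cdkn2d UMI in 7.17 ± 1.14% of cells. The shares in macrophage-like cells were 8.67 ± 3.26% and 8.34 ± 4.59%, so the exit state stood no higher than these cells, which can divide and are no blank for either gene.

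Cdkn2a, the gene of p16 and p19Arf, had 119, 105, 97.9 and 121 CPM in Myog- cycling cells and 39.2, 40.8, 35.7 and 50.2 CPM in Myog+ non-cycling cells. It fell by 1.33 on the log2 scale (SE 0.10, edgeR adjusted p = 2.26e-10). Cdkn2b, the p15 gene beside it in the genome, was the scarcest of the family. It had 15.5, 12.2, 17.5 and 14.9 CPM and then 4.11, 4.14, 5.42 and 6.07 CPM, a change of -1.53 (SE 0.12, edgeR adjusted p = 4.37e-10). Neither gene overlapped between the states. A Cdkn2b UMI was seen in 2.65 ± 0.807% of Myog+ non-cycling cells after thinning, against 2.88 ± 1.39% of macrophage-like cells.

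**Figure D2:**
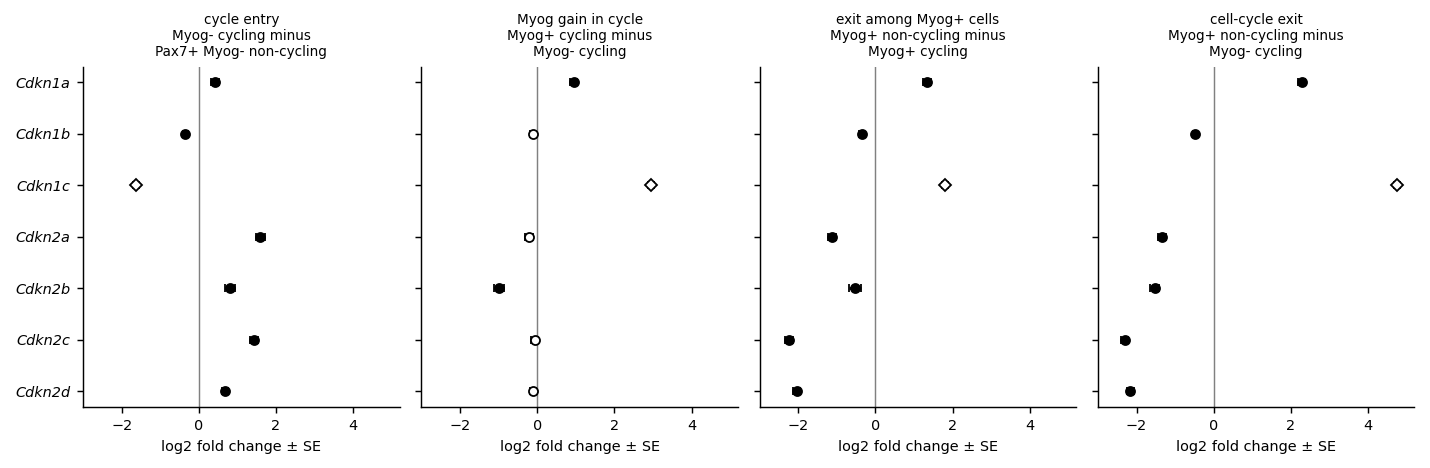
Log2 fold change with its SE for each inhibitor in the 4 comparisons of states; filled circles passed an edgeR adjusted p of 0.05, open circles did not, and the open diamond is Cdkn1c, which was not tested. Cdkn2c and Cdkn2d lie near 0 for the gain of Myog within the cycle (-0.07 and -0.12) and at -2.24 and -2.05 for exit among Myog+ cells.

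Exit was taken in 2 parts, the gain of Myog and the loss of cycle RNA, with the Myog+ cycling cells between them as far as the soft gates allow. Where Myog was gained within the cycle, Cdkn1a rose from 159 ± 31.3 to 296 ± 49.5 CPM (log2 fold change 0.94, SE 0.09, edgeR adjusted p = 1.39e-07) and Cdkn2b fell from 14.99 ± 2.17 to 7.04 ± 1.59 CPM (-0.995, SE 0.13, adjusted p = 5.89e-06). That is 1 rise and 1 fall among 6, where 16.5% of all genes rose and 14.8% fell. For the other 4 genes the test was not passed, with log2 fold changes of -0.12 (Cdkn1b, SE 0.06), -0.21 (Cdkn2a, SE 0.10), -0.07 (Cdkn2c, SE 0.09) and -0.12 (Cdkn2d, SE 0.08). Without Pax7Cre replicate 2, whose Myog+ cycling cells had the highest Cdkn2c (102 CPM) and Cdkn2d (91.0 CPM), 5 of the 6 genes passed, with Cdkn2a at -0.34, Cdkn2c at -0.25 and Cdkn2d at -0.30. At a Myog gate of 2 UMIs 4 of the 6 genes passed, and at a cycle gate of 3 UMIs 6 did. With the thinned UMIs summed, the Cdkn2b value was -0.10 and its call was lost. Cdkn1c stood at 2322 ± 387 CPM in Myog+ cycling cells, a log2 fold change of 2.94 (SE 0.08) over Myog- cycling cells. A larger one was seen in 0.596% of genes, a rank that is again a description only.

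Among Myog+ cells, from cycling to non-cycling, all 6 genes tested passed again, Cdkn1a upward (30.9% of all genes rose) and the other 5 downward (30.2% fell). Cdkn1a rose by 1.33 on the log2 scale (SE 0.09, edgeR adjusted p = 9.37e-11). Cdkn2c changed by -2.24 (SE 0.11, adjusted p = 2.26e-13), Cdkn2d by -2.05 (SE 0.09, adjusted p = 8.80e-14) and Cdkn2a by -1.12 (SE 0.11, adjusted p = 2.31e-08). Nearly the whole fall of Cdkn2c and Cdkn2d thus lay between the Myog+ states. Cdkn1b changed by -0.36 (SE 0.06, adjusted p = 3.34e-05), a call that was lost when the thinned UMIs were summed (-0.25). Cdkn2b changed by -0.54 (SE 0.16, adjusted p = 0.0066), and that call was lost at cycle gates of 3 or 10 UMIs (-0.37 and -0.36), with single-library clusters kept (-0.58), without Pax7Cre replicate 1 (-0.26) and with the Spp1-led cluster described below kept (-0.01). Cdkn1c was 1.81 higher on the log2 scale (SE 0.07) in the non-cycling cells.

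For entry into the cycle, Myog- cycling cells were compared with Pax7+ Myog- non-cycling cells. All 6 genes tested passed, 5 upward (31.6% of all genes rose) and Cdkn1b downward (34.9% fell). Cdkn2c rose from 29.96 ± 1.24 to 78.2 ± 4.38 CPM (log2 fold change 1.42, SE 0.10, edgeR adjusted p = 1.42e-10). Cdkn2d rose from 49.3 ± 2.74 to 76.5 ± 2.73 CPM (0.67, SE 0.08, adjusted p = 3.95e-07) and Cdkn1a from 122 ± 22.8 to 159 ± 31.3 CPM (0.42, SE 0.10, adjusted p = 9.19e-04). Cdkn1b fell by 0.35 on the log2 scale (SE 0.06, adjusted p = 1.27e-05). Cdkn2a rose from 38.0 ± 8.49 to 111 ± 11.2 CPM (1.59, SE 0.12, adjusted p = 1.40e-10) and Cdkn2b from 8.81 ± 0.748 to 14.99 ± 2.17 CPM (0.79, SE 0.13, adjusted p = 1.81e-05). These last 2 values rest on which non-cycling cells are counted. With a further cluster of 2223 cells kept, described next, Cdkn2a rose by only 0.30 and Cdkn2b turned to -0.33.

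That cluster was led by Spp1, Ass1, Lox, Tagln and Fn1 and was present in all 4 libraries. It was left out of the states because fibroblast was its leading marker list, with 2 of 12 markers raised. This was under the 3 raised markers needed for a name, so the cluster stayed unnamed and was not shown to be non-muscle. Its cells had passed the same sort. It had the highest Cdkn2a and Cdkn2b of any cluster found in all 4 libraries. Cdkn2a stood at 137, 157, 153 and 160 CPM, against 40.7, 39.7, 22.5 and 31.2 CPM in the quiescent-like cluster (led by Chodl, Prelp and Itih5). Cdkn2b stood at 28.2, 28.1, 38.6 and 30.2 CPM, against 7.21, 7.56, 8.40 and 7.96 CPM. Within libraries the ratio between the clusters was 3.38 to 6.79 for Cdkn2a and 3.71 to 4.60 for Cdkn2b. For Cdkn1a it was 0.804 to 1.05 and for Cdkn2d 0.494 to 0.647. In the cell-cycle exit comparison, adding these cells left all 6 calls in place, with Cdkn2a at -0.94 and Cdkn2b at -1.06. Among Myog+ cells it took the Cdkn2b change to -0.01 and its call was lost.

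Along the cycle RNA of Myog- cells, with the Spp1-led cluster left out as in the states, the INK4 genes parted into pairs. In that cluster Cdkn2a stood at 152 ± 10.1 and Cdkn2b at 31.3 ± 4.97 CPM. Cdkn2c stood there at 23.0 ± 2.18 and Cdkn2d at 28.0 ± 5.79 CPM. Bins with the cluster kept were not made, so the part of its exclusion in the pairs was not tested. In Myog- cells the Cdkn2c level was 26.7 ± 3.38, 29.4 ± 1.65, 19.7 ± 3.65 and 32.3 ± 1.20 CPM at 0, 1 to 4, 5 to 9 and 10 to 19 cycle UMIs per 5000, and 99.7 ± 4.28 CPM at 20 or more. Cdkn2d stood at 50.7 ± 3.41, 48.99 ± 3.598, 31.2 ± 2.26 and 28.4 ± 4.33 CPM in the first 4 bins and at 96.9 ± 2.71 CPM at 20 or more. Both genes were highest in the cells richest in cycle RNA, and the bins below differed, with Cdkn2c lowest at 5 to 9 and Cdkn2d low from 5 to 19. Cdkn2a was already at 98.9 ± 12.9 CPM at 5 to 9 cycle UMIs, against 43.9 ± 10.8 CPM at 1 to 4, and reached 115 ± 13.2 CPM at 20 or more. Cdkn2b went from 10.3 ± 0.708 CPM at 1 to 4 to 18.5 ± 1.24 CPM at 5 to 9, and stood at 17.4 ± 4.85 and 13.8 ± 1.67 CPM in the last bins. From 1 to 4 to 5 to 9 cycle UMIs, a step across the cycle gate, Cdkn2a and Cdkn2b went up and Cdkn2c and Cdkn2d down, each by more than the SDs. The same step in Myog+ cells has 3 libraries in its second bin. There Cdkn2c went from 14.6 ± 1.83 to 14.3 ± 0.297 CPM and Cdkn2d from 15.6 ± 1.87 to 16.7 ± 1.48 CPM. Cdkn2a went from 44.8 ± 6.09 to 52.3 ± 7.07 CPM and Cdkn2b from 5.02 ± 0.963 to 9.37 ± 3.32 CPM, so the pairs did not part in this way.

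**Figure D3:**
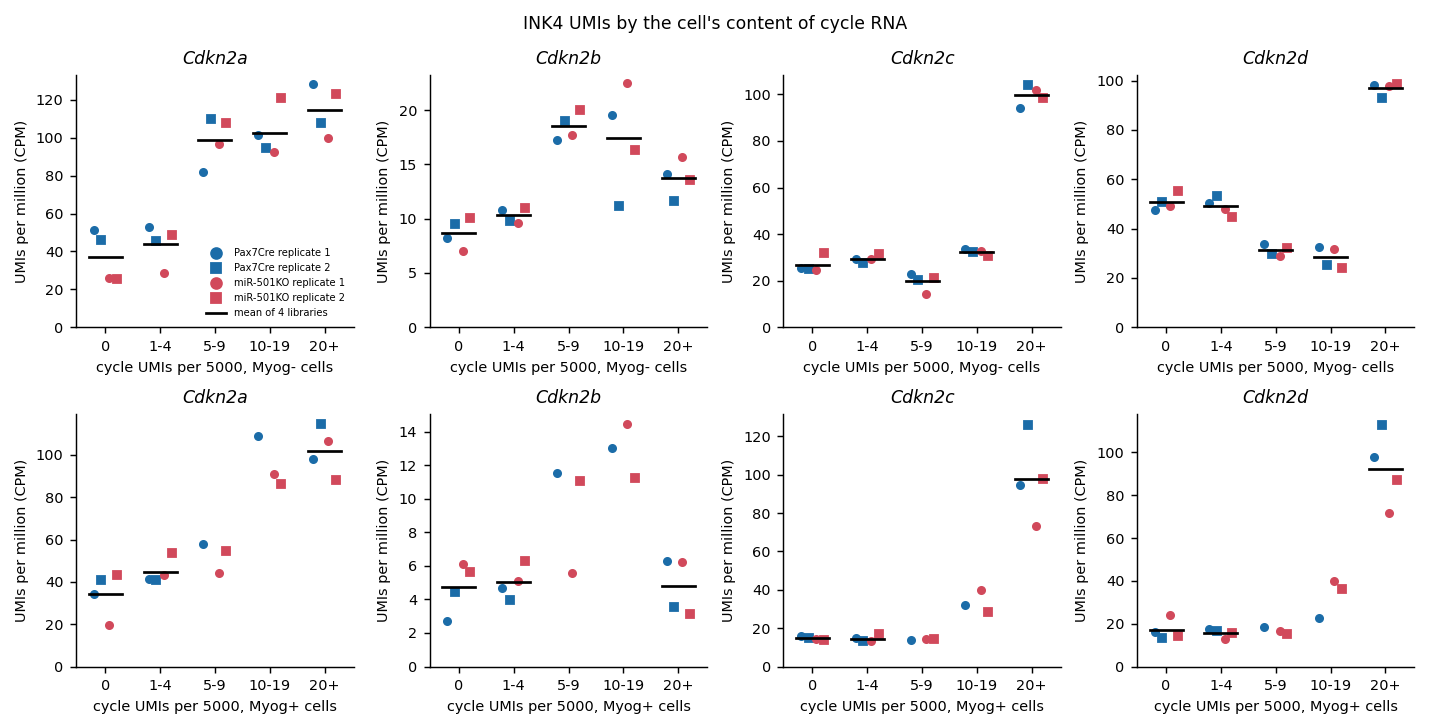
CPM (axes from 0) of the INK4 genes in bins of cycle-gene UMIs per 5000 UMIs, for Myog- cells (upper row) and Myog+ cells (lower row); points are libraries with at least 20 cells in the bin and the bar is the mean where all 4 have them. Cdkn2c and Cdkn2d step up at 20 or more cycle UMIs, to 99.7 and 96.9 CPM in Myog- cells, while Cdkn2a has means of 98.9 to 115 CPM from 5 cycle UMIs on in Myog- cells and 52.3 CPM at 5 to 9 in Myog+ cells.

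Among the clusters, the cycling-like one led by histone genes such as H1f5 and H2ac8, whose RNA is made in S phase, had 101 ± 5.98 CPM of Cdkn2c and 100 ± 4.56 CPM of Cdkn2d. The one led by the mitosis genes Cenpf, Cdc20 and Cenpa had 61.8 ± 11.9 and 55.7 ± 6.06 CPM. In every library the histone-led cluster had the higher level, 1.37 to 1.86 times for Cdkn2c and 1.68 to 2.16 times for Cdkn2d. Cdkn2b was the reverse, at 0.416 to 0.660 times, and Cdkn2a was level, at 0.929 to 1.05 times. Cells with one RNA of the pair held the other somewhat more often than cells without it. Among Myog- cycling cells with a Cdkn2c UMI, 35.5, 44.6, 31.1 and 41.0% also had a Cdkn2d UMI after thinning, against 26.1, 24.5, 24.2 and 21.3% of the other cells. These values describe cells of shared libraries and carry no test.

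Among non-cycling cells, again without the Spp1-led cluster, Cdkn1c and Cdkn1a rose with the cell's own Myog content. Cdkn1c stood at 966 ± 174 CPM with no Myog UMI, 1324 ± 505 with 1, 3360 ± 556 with 2 to 4, 5290 ± 936 with 5 to 9 and 9405 ± 1446 with 10 or more. Cdkn1a stood at 120 ± 25.2, 227 ± 107, 301 ± 165, 507 ± 75.0 and 839 ± 122 CPM. For Cdkn1c the ranges of mean ± SD do not overlap at any step from 1 Myog UMI on, and for Cdkn1a they do not at the last step. From no Myog to 10 or more, Cdkn1c was 8.79 to 10.8 times and Cdkn1a 5.93 to 8.79 times higher within a library. Cdkn1b went from 84.2 ± 7.68 to 40.8 ± 6.23 CPM and Cdkn2d from 49.4 ± 2.19 to 12.2 ± 0.779 CPM over the same range.

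Sarcomere RNA, which marks the later steps of differentiation, separated Cdkn1a from Cdkn1c. In Myog+ non-cycling cells with 0 to 9, 10 to 49 and 50 or more sarcomere UMIs per 5000, Cdkn1a stood at 130 ± 24.9, 273 ± 24.6 and 1188 ± 80.5 CPM. Cdkn1c stood at 4532 ± 1612, 7693 ± 1275 and 8631 ± 1693 CPM. At the last step Cdkn1a was 3.83 to 4.87 times higher within each library, whereas Cdkn1c was at most 1.21 times higher, and these ranges do not overlap. In the first bin Cdkn1a was within the SD of its level in Pax7+ Myog- non-cycling cells (122 ± 22.8 CPM), and Cdkn1c was above its level there in every library. In the late committed-like cluster led by Myh3 and Myh8, Cdkn1a reached 1711 ± 114 CPM and Cdkn1c 6372 ± 951 CPM. In the cluster led by Myog itself they stood at 462 ± 60.0 and 9276 ± 1306 CPM, so the order of the clusters differs between the 2 genes.

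**Figure D4:**
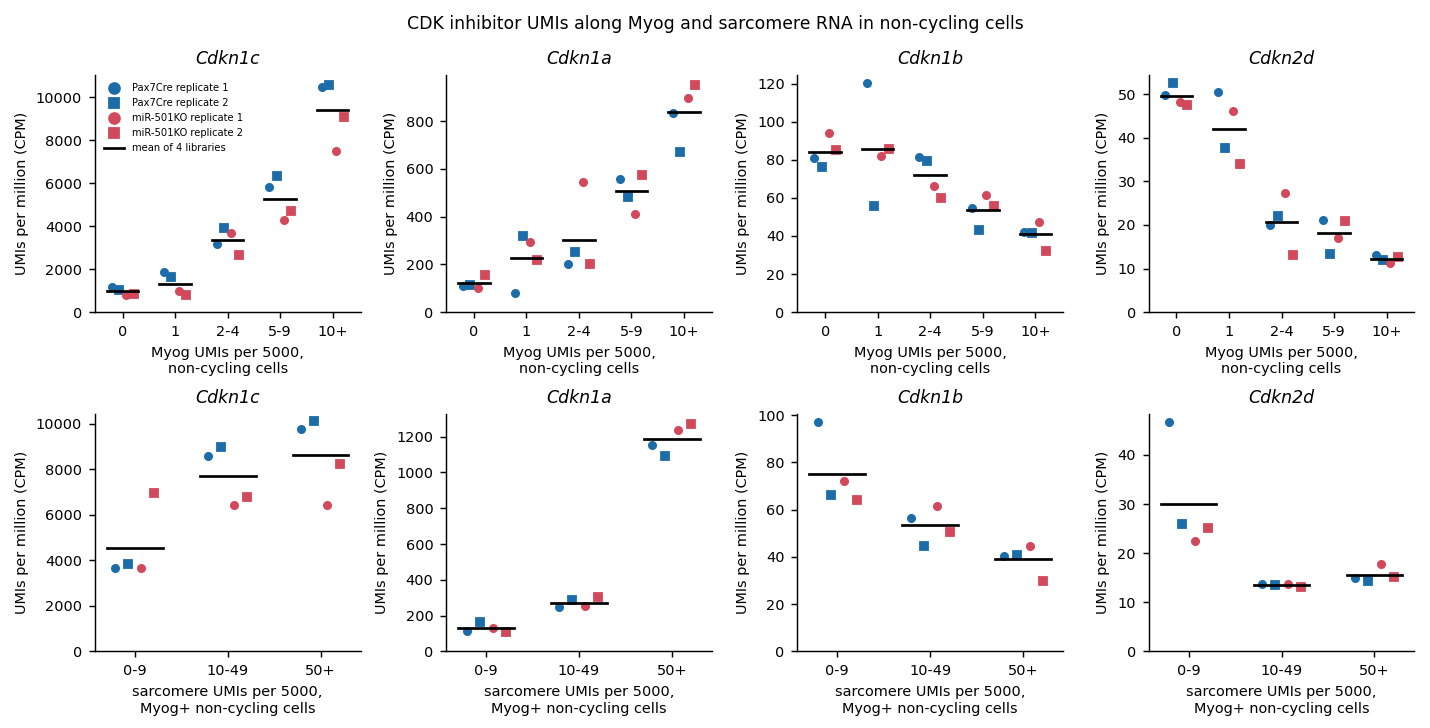
CPM (axes from 0) of Cdkn1c, Cdkn1a, Cdkn1b and Cdkn2d in non-cycling cells binned by Myog UMIs (upper row) and in Myog+ non-cycling cells binned by sarcomere UMIs (lower row), per 5000 UMIs; points are libraries and the bar is their mean. From 10 to 49 to 50 or more sarcomere UMIs the Cdkn1a mean goes from 273 to 1188 CPM and the Cdkn1c mean from 7693 to 8631 CPM.

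Both RNAs were common in the same exit cells. Of Myog+ non-cycling cells, 91.6 ± 2.71% held a Cdkn1c UMI after thinning, against 29.7 ± 9.98% of macrophage-like cells, and 62.7 to 65.2% per library held UMIs of both Cdkn1a and Cdkn1c. This share is near the product of the single shares, which lay between 61.0 and 64.5%. In the 713 Myog+ cycling cells a Cdkn1c UMI was seen in 75.9 ± 6.36%, so that its RNA was present in many cells that still held cycle RNA. Cells carrying RNA of 2 cells in one droplet could add to that state, and with the highest Scrublet scores removed the log2 fold change of Cdkn1c over Myog- cycling cells was 2.90. Scrublet, a caller of such droplets, called 0.191% of cells, a share at which it cannot be relied on. The part of such droplets in that state was not tested.

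Markers of other cell types moved with the states. The summed level of the 14 macrophage markers was 16.4 to 40.5 CPM per library in all 4 states, and none of the 14 was at 0 over the libraries. That of 12 fibroblast markers, which include collagens that progenitors make, went from 3583 to 3928 CPM in Pax7+ Myog- non-cycling cells to 891 to 992 CPM in Myog+ non-cycling cells, and that of 12 mural markers, which include Des, from 1302 to 1457 CPM to 4801 to 5855 CPM. Of the mural markers 1 was at 0 in Pax7+ Myog- non-cycling cells. The part of these markers in the levels above was not tested. Outside the muscle lineage, Cdkn1a stood at 424 ± 70.0 CPM in macrophage-like and 216 ± 32.4 CPM in mural-like cells, and Cdkn2c at 118 ± 50.3 CPM and Cdkn2d at 127 ± 33.7 CPM in Schwann-like cells. Cdkn2a was at 11.3 ± 6.36 CPM in mural-like and 17.3 ± 6.95 CPM in Schwann-like cells, below every MP state.

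The cycling gate is set on replication and mitosis RNA, so lower levels of other cycle genes outside it follow in part from the gate. Of 19 cyclin, CDK and CDK-regulator genes, 4 rose, 14 fell and 1 did not pass in the cell-cycle exit comparison, with a median log2 fold change of -1.77, against 0.02 over all genes. Ccnb1, the mitotic cyclin, changed by -6.18 (SE 0.16) and Cdc25c, the phosphatase that activates CDK1, by -6.08 (SE 0.25). The largest rises were of Mnat1 (0.87, SE 0.05) and Cdk7 (0.72, SE 0.07), 2 subunits of the CDK-activating kinase. For cycle entry 14 of the 19 genes rose and 3 fell, with a median of 0.99 against -0.07. For the gain of Myog within the cycle 4 rose, 3 fell and 12 did not pass, with a median of 0.03 against 0.02.

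Of 14 RB and E2F genes tested, 6 rose and 8 fell at exit (median -0.40). Rb1, the retinoblastoma gene, went from 22.7 ± 2.80 to 135 ± 25.9 CPM (log2 fold change 2.66, SE 0.07), while its relative Rbl1 changed by -3.87 (SE 0.13). The repressor E2f7 changed by -5.45 (SE 0.16) and its close relative E2f8 went up, from 39.0 ± 3.58 to 94.3 ± 8.66 CPM (1.38, SE 0.07), though an antisense gene overlaps E2f8. Of 19 p53 targets tested, 9 rose and 8 fell (median 0.04), where 37.8% of all genes rose and 36.9% fell. Pmaip1 (2.55, SE 0.12) and Gadd45a (1.58, SE 0.07) rose the most, and Sesn2 (-1.48, SE 0.14) and Phlda3 (-1.39, SE 0.06) fell the most. The part of p53 in the rise of Cdkn1a was not tested.

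Of 10 genes of p27 turnover, 5 rose and 4 fell (median 0.09). Cks2 (-3.03, SE 0.07) and Cks1b (-2.24, SE 0.06), the latter a cofactor of the ligase that marks p27 for degradation, fell the most, and Foxo1 and Skp1 rose by 0.43 each (SE 0.10 and 0.04). Of 15 genes of the Cdkn2a neighbourhood and of Polycomb, the complexes that silence it, 3 rose and 10 fell (median -0.84). Ezh2, the methyltransferase of Polycomb, changed by -1.99 (SE 0.06) and Mtap, a neighbour of Cdkn2a, by -1.57 (SE 0.07), whereas Ezh1 rose by 1.01 (SE 0.08) and Ring1 by 0.53 (SE 0.08). Cdkn2a and Ezh2 RNA fell in the same comparison.

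Of 9 tested genes of the imprinted domain around Cdkn1c, 6 rose and 2 fell (median 0.17). The largest rises, of Tnfrsf23 (2.20, SE 0.13) and Tnfrsf22 (1.56, SE 0.18), were of genes at a mean of at most 16.2 CPM in any state, and Tssc4 (-1.005, SE 0.07) and Dhcr7 (-0.67, SE 0.15) fell. No tested neighbour came near the 4.75 of Cdkn1c. Of 17 genes of myogenic exit, 8 rose and 5 fell (median 0.49), led by the fusion genes Mymk (7.30, SE 0.12) and Mymx (5.98, SE 0.10) upward and by Myf5 (-2.19, SE 0.07) and the Notch target Heyl (-1.60, SE 0.08) downward. The genes named from these lists were picked among those that passed the edgeR test and moved the same way in 4 of 4 libraries, so both traits hold by choice.

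Over the 16 sums of 4 states in 4 libraries, log2(CPM + 1) with each library's mean removed, genes with a pattern like that of Cdkn1c included Iffo1 (Pearson r = 0.993) and Olfml2b (0.990). For Cdkn1a the 3 most alike were Rbm38 (0.992), Tnni1 (0.991) and Pdhb (0.990). For Cdkn2c they were Phf6 (0.995), Nrm (0.994) and Ezh2 (0.994), and for Cdkn2d Igsf8 (0.996), Fmr1 (0.995) and Dcbld2 (0.993). For Cdkn2a they were Pafah1b3 (0.988), Nudt21 (0.987) and Sap18 (0.984), and for Cdkn1b Adamts10 (0.988), Egfr (0.985) and Lhfpl2 (0.985). Among the inhibitors themselves r was 0.946 between Cdkn2c and Cdkn2d, 0.867 between Cdkn1a and Cdkn1c and -0.935 between Cdkn1a and Cdkn1b. The 16 sums share 4 libraries and 4 states, so such values describe 4 levels and little else.

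Between genotypes, Cdkn1c was the inhibitor chosen for its difference, and its values are given as such. Over all cells it had 2378 and 2199 CPM in Pax7Cre and 1430 and 1713 CPM in miR-501KO, a log2 fold change of -0.56 (SE 0.14), with miR-501KO lower in run 1 (-0.73) and run 2 (-0.36). In edgeR 0 of 15725 genes (0%) passed for genotype over all cells, 440 had an unadjusted p under 0.05, and DESeq2 called 12 of 15710. Of the 6 other inhibitors, both miR-501KO libraries lay below both Pax7Cre libraries for 1, Cdkn2d, as for 9.98% of all genes, and above them for 2, Cdkn1a and Cdkn2b, as for 15.4%. Over all cells the level also follows how many cells of each state a library holds, since 49.8 to 67.3% of a library's Cdkn1c UMIs came from Myog+ non-cycling cells, which were 22.1 and 19.6% of the MPs in miR-501KO and 27.4 and 23.8% in Pax7Cre.

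Within states Cdkn1c was lower in both miR-501KO libraries than in both Pax7Cre libraries in 3 of 4. In these 3 states, in the order given next, 9.96%, 9.57% and 10.3% of all genes were lower in this way. Cdkn1c was chosen for being lower in the same libraries, so the count adds no support. In Pax7+ Myog- non-cycling cells it had 1215 and 1122 against 836 and 801 CPM (log2 fold change -0.59, SE 0.15). In Myog- cycling cells it had 417 and 363 against 218 and 269 CPM (-0.71, SE 0.15), and in Myog+ non-cycling cells 8835 and 8764 against 6178 and 7564 CPM (-0.38, SE 0.22). In Myog+ cycling cells the groups overlapped, with 2665 and 2409 against 1767 and 2446 CPM (-0.28, SE 0.16). There the value was -0.05 without miR-501KO replicate 1 and -0.55 without miR-501KO replicate 2. In Myog+ non-cycling cells it was -0.20 and -0.58 in the same order, so both values were smaller without miR-501KO replicate 1.

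Of the 6 other inhibitors, Cdkn1a lay higher in both miR-501KO libraries in the Myog+ states. In Myog+ cycling cells it had 243 and 266 against 334 and 342 CPM (0.40, SE 0.12) and in Myog+ non-cycling cells 707 and 587 against 754 and 805 CPM (0.24, SE 0.17). In Pax7+ Myog- non-cycling cells Cdkn2a had 46.3 and 44.0 against 28.5 and 33.3 CPM (-0.61, SE 0.16), and in the other 3 states its log2 fold change lay between -0.21 and 0.08. In Myog+ cycling cells Cdkn2d had 68.2 and 91.0 against 55.5 and 62.8 CPM (-0.43, SE 0.15). Cdkn1b lay higher in both miR-501KO libraries in Pax7+ Myog- non-cycling cells (0.07, SE 0.14), as did 22.6% of all genes, and its groups overlapped in the other 3 states. Its log2 fold change lay between -0.09 and 0.07 in the 4 states. No p is given for these differences.

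Over the 6 genes other than Cdkn1c, both miR-501KO libraries were below both Pax7Cre libraries for 2 in Pax7+ Myog- non-cycling cells (9.96% of all genes) and above for 2 (22.6%). In Myog- cycling cells it was 2 below (9.57%) and 0 above (14.8%). In Myog+ cycling cells it was 2 below (14.3%) and 1 above (17.4%), and in Myog+ non-cycling cells 0 below (10.3%) and 2 above (15.2%). With 2 libraries a group, these counts are small numbers beside a background of that size. The Myog+ cycling cells of miR-501KO replicate 1 were also shallower, at a median of 15945 UMIs against 31077 to 47006 in the other libraries. A shallow cycling-like cluster of 144 cells, 100 of them from that library, was left out in an alternative. Over all alternatives, that one included, the Cdkn1c log2 fold change in this state lay between -0.55 and -0.05. The part of depth itself in that state's values was not tested.

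**Figure D5:**
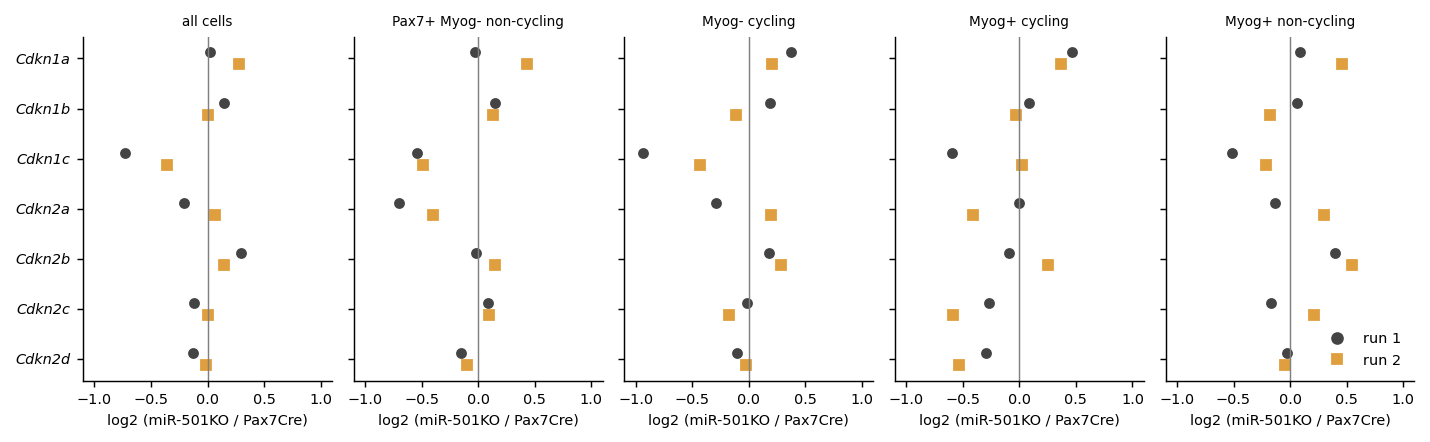
Log2 ratio of miR-501KO to Pax7Cre CPM within run 1 (circles) and run 2 (squares) for each inhibitor, over all cells and in 4 states; the grey line marks no difference. Cdkn1c is at -0.73 and -0.36 over all cells, and in Myog+ cycling cells it is at -0.59 in run 1 and 0.02 in run 2.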

How the data were processed

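MPs were profiled in 4 libraries, 2 of Pax7Cre and 2 of miR-501KO mice. The authors deposited raw UMI counts per gene and barcode, made with Cell Ranger, in version 6.0.2 per the file headers, which is another version than the study names; the submitters' processing notes name GRCm39 and Seurat, and no normalization had been applied to the counts. Depth was 73665012 to 117527749 UMIs per library over all barcodes. Intervals over libraries cover the spread between pools, and sums of few UMIs such as those of Cdkn2b are the least precise.

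Barcodes under 5000 UMIs or 1000 genes were dropped. Cells were clustered in scanpy 1.11.5 (10000 counts per cell, 2000 variable genes without the 7 inhibitors, 30 components, 15 neighbours, Leiden resolution 0.5). This served to find clusters whose leading marker list was not a muscle one and clusters over 90% from 1 library. States were gated on cells thinned to 5000 UMIs (5 cycle UMIs, 1 Myog UMI, 1 Pax7 UMI). All UMIs were then summed per library and state. The 16 sums were tested with edgeR 4.0.16 (limma 3.58.1, R 4.3.3; TMM, filterByExpr, quasi-likelihood test, library as block, Benjamini-Hochberg adjustment), with an adjusted p under 0.05 as a call and gate genes left out of the counts. Genotype was fitted on 4 sums with no block. CPM is a gene's UMIs over all UMIs of the cells summed, on the usual counts scale, and the log2 fold changes come from the fit. Symbols shared by several genes (22) were kept apart by identifier. Scrublet called 20 doublets (0.191% of cells), a share at which the caller cannot be relied on. No cell was therefore dropped as a doublet, and leaving out the highest 5% of scores was an alternative.

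In simulated counts for the exit comparison (12779 genes, 200 changed), 93% of genes changed 2-fold and 96% changed 4-fold were recovered, with 17 false calls. For genotype over all cells (15725 genes, 200 changed) 52% and 81% were recovered, with 11 false calls. In the data 9522 genes were called at exit, so the simulation does not give the error rate there. The labels put both libraries of a number in the same run, so numbers pair the genotypes; the run 1 minus run 2 difference correlated at 0.171 between groups over all cells. Alternatives were RLE size factors, DESeq2 1.42.0, no filter, cycle gates of 3 and 10, a Myog gate of 2, at most 10% mitochondrial UMIs, single-library clusters kept or left out, thinned UMIs summed, no block or a run block, and each replicate left out. After seeing the data, 2 more were added. One kept the Spp1-led cluster, and the other left out a shallow cycling-like cluster of 144 cells, 100 of them from miR-501KO replicate 1. Genes named from the lists are the up to 2 largest rises and falls among called genes with 1 direction in 4 of 4 libraries. The members and lists were chosen with earlier results of these data known. Sequences come from RefSeq and GENCODE vM21 tables on GRCm38, another build than that of the files, so no coordinate was joined to the counts. For likeness of pattern the 3 genes with the highest r were named, and 1 result is not reported here.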

Additional observations from a re-analysis of the deposited data

Results flagged for a closer look

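Cdkn2c differed in the direction of the genotype between 2 states. In Pax7+ Myog- non-cycling cells both miR-501KO libraries lay above both Pax7Cre libraries (30.3 and 31.5 against 28.6 and 29.4 CPM; log2 fold change 0.0227), and in Myog- cycling cells both lay below (76.1 and 75.0 against 76.9 and 84.6 CPM; log2 fold change -0.122). The difference between the states was not tested. The SEs were 0.16 and 0.11, so the changes are of the size of their errors or smaller.

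The single-library clusters, left out of the states, entered the genotype values over all cells but no comparison of states. In these cells of miR-501KO replicate 1, 100% held a Cdkn1c UMI after thinning, against 65.2 ± 5.79% of all other cells over the 4 libraries, 97.8 ± 1.31% of the committed-like cluster led by Myog and 93.8 ± 2.85% of the one led by Myh3. Their Cdkn1c level was 1599 CPM, beside 1430 CPM over all cells of that library, and their median depth was 17522 UMIs.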

How the results depend on the processing

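Of 476 recomputed log2 fold changes of the inhibitors between states, 446 kept their direction and side of the threshold (for Cdkn1c, stayed within the spread of the libraries), 8 lost a call, 10 gained one, 11 values of Cdkn1c moved and 1 reversed, Cdkn2b at cycle entry with the Spp1-led cluster kept (-0.33). All 6 genes stayed called at exit under every alternative, and at entry too except Cdkn2b with thinned UMIs summed (0.30), beside its reversal. For the gain of Myog in the cycle, 2 of 6 were called, 4 at a Myog gate of 2, 6 at a cycle gate of 3 and 1 with thinned UMIs summed. Genes called of all tested were 9522 at exit, 5707 with thinned UMIs summed; 7786 and 3564 among Myog+ cells; 8478 and 4597 at entry; and 3985 for the gain of Myog, 933 with thinned UMIs summed, 2382 with no replicate block and 1992 with single-library clusters kept. Fewer UMIs and genes enter the thinned sums; the cause of the other shifts was not tested. The block for library changed no call of an inhibitor. For genotype over all cells DESeq2 called 12 genes and every edgeR alternative that kept all libraries 0, the replicate block for run included. Leaving out 1 library gave 6 of 6 at exit and entry, 5 to 6 among Myog+ cells and 2 to 5 for the gain of Myog; 8533 to 9236, 7637 to 7985, 6564 to 7363 and 2933 to 3380 genes in the same order; and for genotype 0 to 3 genes (3 without Pax7Cre replicate 2) and a Cdkn1c value of -0.70 to -0.43. Cells with a UMI in Myog+ non-cycling cells were more numerous with all UMIs than after thinning, at 88.5% for Cdkn1a, 72.0% for Cdkn1b, 96.7% for Cdkn1c, 42.3% for Cdkn2a, 11.7% for Cdkn2b, 29.3% for Cdkn2c and 34.7% for Cdkn2d. Depth limits Cdkn2b most, with 50 to 85 UMIs per library in Myog+ non-cycling cells.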
